A study of Mus musculus with 14 samples.

Results

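The 10 vasoconstrictor receptor genes Adra1a, Adra1b, Adra1d, Adra2a, Agtr1a, Ednra, Ednrb, Avpr1a, Tbxa2r and Htr2a were examined in the superior mesenteric artery of C57BL/6 mice. They were taken by symbol from the 46095 gene symbols of a table of read counts, and all 10 were among the 17693 genes with enough reads to be tested. RNA-seq covered 14 mice aged 8 weeks in 4 groups: 3 WT (Drp1 +/+) and 4 Drp1 KO mice under normal conditions, for which the labels name no treatment, and as many of each genotype after ischemia. KO is the study's name for a group labelled Drp1 flox/+, also called knockdown. The study's methods describe heterozygous mice made with CRISPR/Cas9, and whether a flox allele was deleted is not stated in the sources used here. The ischemic mice had lost blood in a haemorrhage model, for 2 h according to the labels and for longer according to the methods. Levels are given as CPM, read counts brought to a common library size, with the TMM correction of edgeR for library composition.

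Arteries such as those of the mesentery narrow when agonists bind receptors on their smooth muscle. Noradrenaline acts on the alpha-1 receptors (Adra1a, Adra1b, Adra1d), angiotensin II on Agtr1a, endothelin on Ednra and Ednrb, vasopressin on Avpr1a, thromboxane on Tbxa2r and serotonin on Htr2a; these couple mainly to Gq, which activates phospholipase C and releases calcium. Adra2a couples to Gi and is also found on sympathetic nerve endings, and endothelial Ednrb is known for the release of dilators.

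Total counts ranged from 25612646 to 40255851 per mouse, so that 3 counts, taken as the smallest level the depth can show, stood for 0.0745 to 0.117 CPM. Between mice of a group the biological coefficient of variation was 0.522. The targeted gene Dnm1l (Drp1) had 73.5 ± 15.1 CPM (SD, n = 3) in normal WT, 58.9 ± 3.30 (n = 4) in normal KO, 75.0 ± 10.3 in ischemic WT and 69.4 ± 6.88 in ischemic KO mice. The genotypes did not overlap under normal conditions, by a narrow gap (63.8 CPM or more against 62.2 or less), as for 4.5% of all genes, and overlapped after ischemia. The smooth muscle markers Myh11, Acta2, Cnn1, Smtn and Lmod1 were at 346 CPM or more in every mouse, whereas Tagln was at 0.675 to 5.78 CPM. Brown adipocyte markers (Ucp1, Cidea, Elovl3, Dio2) were present in all mice at a summed level of 169 to 6344 CPM, highest in WT normal mouse 2, whose smooth muscle sum was the lowest of the 14. WT normal mouse 3 was sequenced on lane 1 and the other 13 mice on lane 8, so that lane cannot be told apart from this mouse. That mice of a group were separate animals follows from the study's description, and extraction dates are not given in the labels.

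Adra2a varied most among the 10 genes, over a 45.8-fold range between mice, and was the receptor gene with the largest ischemia effect in KO mice. It has 1 exon in GENCODE M21 (chr19:54044151-54048982, plus strand, GRCm38). RefSeq promoters on GRCm38.p6 matched 7 of the 10 genes, all but Adra1a, Adra1d and Agtr1a, with 9 promoters in all. TATAAA, searched on both strands in the 250 bases before the start, was found for Adra2a and Avpr1a and in 12.4% of the 32817 promoters. Both sites are shown, in capitals, because the gene with the widest range carries one of them. They lie on the plus strand, at chr19:54045229-54045258 for Adra2a, with TATAAA starting 29 bases before the RefSeq start, and at chr10:122448350-122448379 for Avpr1a, with TATAAA starting 137 bases before it. The Adra2a window lies inside the GENCODE exon given above, because the RefSeq start is downstream of the GENCODE start.
Adra2a: cTATAAAaccagtccagcgtagagcggcgg
Avpr1a: tttaaattggctTATAAAggaggctggaga
The other motifs searched were the CArG box of smooth muscle genes (none of the 9 promoters, 1.47% of all), TGACGTCA (none, 1.55% of all) and its part TGACG (Adra2a, Avpr1a, Ednrb and Tbxa2r, 17.7%), GGGCGG (Adra1b, Adra2a and Htr2a, 32.7%), AGAACA (Ednrb and Htr2a, 16.1%) and CANNTG (Adra2a, Avpr1a, Ednra and Tbxa2r, 66.2%). These matches describe the letters in the window and were not tested against the levels.

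Compared per kilobase of exon, the receptor mRNAs covered a wide range. Adra1d had the highest level, 30.1 ± 13.2 CPM per kb (SD, n = 14), followed by Tbxa2r with 14.3 ± 5.15, Ednrb with 6.90 ± 3.57 and Adra1a with 4.72 ± 3.92. Lower levels were found for Ednra (2.69 ± 1.03 CPM per kb), Agtr1a (2.12 ± 1.29), Avpr1a (1.69 ± 1.25), Adra1b (1.19 ± 0.905) and Adra2a (1.11 ± 1.12), and the lowest for Htr2a (0.270 ± 0.200). Only the first neighbours of this order differed beyond their spread: Adra1d exceeded Tbxa2r in 14 of 14 mice, by 1.06 ± 0.39 on the log2 scale. Tbxa2r exceeded Ednrb in 13 of 14 mice by 1.13 ± 1.16, and the other neighbours likewise differed by less than 1 SD of their difference between mice. An antisense gene, Gm14285, overlaps 7.74% of the exon length of Adra1d, and 4933431K23Rik overlaps 1.66% of Ednra. Whether reads were counted by strand is not given in the sources used here, so reads of these stretches could belong to either gene.

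**Figure D1:**
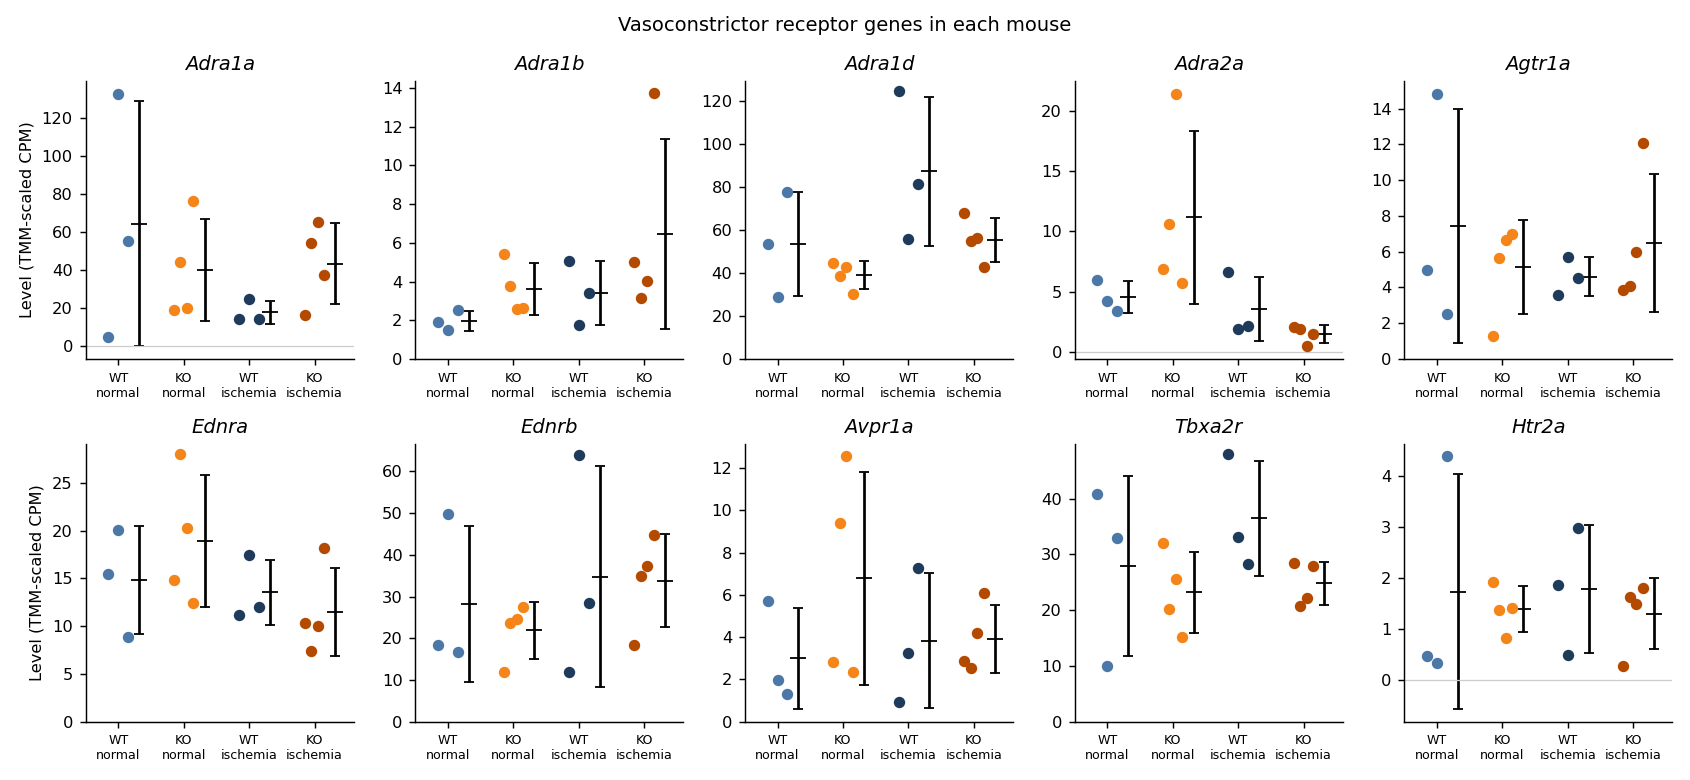
Levels of the 10 receptor genes in TMM-scaled CPM (y axis, linear, 1 panel per gene with its own scale) in each of the 14 mice by group (x axis); each point is a mouse, and the bar beside the points is the mean ± SD of the group. For Adra2a the 4 KO mice after ischemia sit between 0.468 and 2.11 CPM, below the 4 KO mice under normal conditions at 5.74 to 21.4 CPM.

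Adra2a encodes the alpha-2A adrenergic receptor. In KO mice its level was 6.85, 10.6, 21.4 and 5.74 CPM under normal conditions and 2.11, 1.87, 0.468 and 1.52 CPM after ischemia, from 187 to 948 and from 16 to 71 reads. The groups did not overlap, and every ischemic KO mouse was below every normal one. The same was so, lower in ischemia, for 5.6% of all genes tested, and 11.1% of all genes did not overlap in either direction. In WT mice the level was 5.99, 4.19 and 3.43 CPM under normal conditions and 6.60, 1.94 and 2.15 CPM after ischemia. These groups overlapped, since WT ischemia mouse 1 was higher than all 3 normal WT mice.

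The fitted difference of ischemic from normal KO mice was −2.90 ± 0.58 (log2 fold change ± SE), a 7.46-fold lower level. With edgeR's quasi-likelihood test and Benjamini-Hochberg adjustment over all genes it had an unadjusted p of 0.000197 and an FDR of 0.0602, and so missed the limit of 0.05. DESeq2 gave an FDR of 3.98e-05, and over 8 alternatives the FDR ranged from 3.98e-05 to 0.0732 and passed in 6. Without KO normal mouse 3, which had the highest level, the difference was −2.37 with an FDR of 0.185. In WT mice the difference was −0.35 ± 0.62 (FDR 0.854). The difference of the ischemia effect between the genotypes was −2.55 ± 0.83 with an unadjusted p of 0.00871 and an FDR of 0.946. Averaged over both genotypes, ischemia against normal conditions gave −1.62 ± 0.42 for Adra2a, with an FDR of 0.0931 in edgeR and 0.00420 in DESeq2.

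Between the genotypes, Adra2a had opposite signs in the 2 conditions. Under normal conditions the mean was 4.54 ± 1.31 CPM in WT (n = 3) and 11.2 ± 7.15 in KO mice (n = 4), a log2 fold change of 1.30 ± 0.60 with an unadjusted p of 0.0478 and an FDR of 0.937 (edgeR), and 0.77 without KO normal mouse 3. After ischemia it was 3.56 ± 2.63 CPM in WT and 1.49 ± 0.725 in KO mice, a log2 fold change of −1.25 ± 0.58 with an FDR of 0.715, which moved to −0.46 without WT ischemia mouse 1 and to −0.55 with the brown adipocyte covariate. Neither passed. In bulk artery, fewer cells that express a gene and less RNA of it per cell cannot be told apart. The 2 KO groups overlapped in the summed smooth muscle, brown adipocyte, fibroblast and endothelial markers, although all 4 fibroblast markers had a log2 fold change below 0 for ischemia in KO mice (median −1.29). The Adra2a difference in KO mice was −3.15 (FDR 0.0255) with the smooth muscle markers and −2.86 (FDR 0.0173) with the brown adipocyte markers as a covariate. Adra2a had a Pearson r of −0.22 with each of these 2 sums over the 14 mice, which does not bound how far a covariate moves a contrast. Fibroblast, leukocyte and mesothelial markers were not used as covariates. Ptprc, a general leukocyte marker, was at 5.16 to 30.3 CPM in normal and 1.99 to 6.96 CPM in ischemic KO mice, which overlapped, with a log2 fold change of −1.82 ± 0.57 and an FDR of 0.195 (edgeR). The sum of 3 mesothelial markers was highest in KO normal mouse 3 (82.1 CPM), the mouse with the highest Adra2a, and otherwise at most 27.3 CPM in any mouse, and all 3 were below 0 in this contrast (median −1.62). The neuron markers summed to 24.5 to 32.1 CPM in normal and 34.2 to 52.1 CPM in ischemic KO mice. Nearly all of this was Uchl1, with 358 to 2089 reads per mouse, whereas Tubb3 had at most 67 reads, Dbh at most 6 and Th none. The part of these cells in the Adra2a levels was not tested.

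The alpha-1 receptor genes mediate constriction by noradrenaline. Adra1d, the subtype with the highest mRNA level, had 53.7, 29.04 and 77.8 CPM in WT and 44.7, 38.5, 42.9 and 30.4 CPM in KO mice under normal conditions. After ischemia it had 125, 55.7 and 81.5 CPM in WT and 67.8, 54.9, 56.3 and 42.9 CPM in KO mice. The highest level was in WT ischemia mouse 1 and the lowest in WT normal mouse 2, and the groups overlapped in each comparison. The log2 fold change of ischemia against normal conditions was 0.71 ± 0.34 in WT, 0.50 ± 0.29 in KO and 0.61 ± 0.22 averaged over both genotypes, the last with an unadjusted p of 0.0178 and an FDR of 0.193 (edgeR). KO against WT gave −0.45 ± 0.31 under normal conditions, −0.65 ± 0.31 after ischemia and −0.55 ± 0.22 averaged over both conditions, the last with an unadjusted p of 0.0266 and an FDR of 0.615. Without WT ischemia mouse 1 the genotype difference after ischemia moved to −0.31 and the ischemia effect in WT mice to 0.36. The latter was 0.39 without WT normal mouse 2 and 1.08 without WT normal mouse 3, and the genotype difference over both conditions was −0.37 without WT normal mouse 3. With the smooth muscle markers as a covariate, the ischemia effect was 0.31 in WT mice and 0.27 over both genotypes, and the genotype difference after ischemia was −0.43. With the brown adipocyte markers as a covariate, the genotype difference was −0.12 after ischemia and −0.13 over both conditions. None of these passed the limit.

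Adra1a had 4.54, 133 and 55.3 CPM in WT and 19.0, 44.1, 19.7 and 76.3 CPM in KO mice under normal conditions. After ischemia it had 14.2, 24.4 and 14.1 CPM in WT and 16.1, 54.1, 65.0 and 36.9 CPM in KO mice. Both the lowest and the highest level of the series lay in the normal WT group, which thus enclosed all other mice. Ischemia against normal conditions gave −1.87 ± 0.86 in WT mice, with an unadjusted p of 0.0489 and an FDR of 0.522 (edgeR), and −0.78 without WT normal mouse 2. In KO mice the same contrast was 0.11 ± 0.72, and the difference between the genotypes was 1.98 ± 1.12 (FDR 0.946), or 0.92 without WT normal mouse 2. The smooth muscle and brown adipocyte covariates moved the contrast in WT mice to −0.48 and −0.24, and the latter moved the difference between the genotypes to 0.34.

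Adra1b had the lowest level of the alpha-1 genes, with 1.92, 1.49 and 2.53 CPM in WT and 5.44, 3.76, 2.60 and 2.64 CPM in KO mice under normal conditions. The 4 normal KO mice were all above the 3 normal WT mice, although 2 of them by little, and 2.59% of all genes did not overlap in this direction (4.5% in either). Scaled by the total count in place of TMM, these groups overlapped. After ischemia it had 5.05, 1.77 and 3.40 CPM in WT and 5.02, 3.13, 4.01 and 13.7 CPM in KO mice, which overlapped. KO against WT averaged over both conditions was 0.90 ± 0.38 (unadjusted p of 0.0323, FDR 0.622, edgeR) and 0.56 without KO ischemia mouse 4. Ischemia against normal conditions, averaged over both genotypes, was 0.81 ± 0.37 with an FDR of 0.269, and 0.48 without that mouse.

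The subtype composition of alpha-1 mRNA differed widely between mice. Of the summed level per kb of the 3 genes, Adra1d made up 49.5% to 96.3% in normal WT, 62.7% to 88.2% in normal KO, 89.8% to 95.5% in ischemic WT and 73.2% to 91.5% in ischemic KO mice. Adra1a made up 1.77% to 49.1%, 7.99% to 34.3%, 2.37% to 8.56% and 4.73% to 19.5% in the same order. Adra1d made up most of the sum in 13 of the 14 mice, and in WT normal mouse 2 it was about level with Adra1a (49.5% against 49.1%). Adra1b reached 13.1% in KO ischemia mouse 4 and was at most 5.90% in the others.

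**Figure D2:**
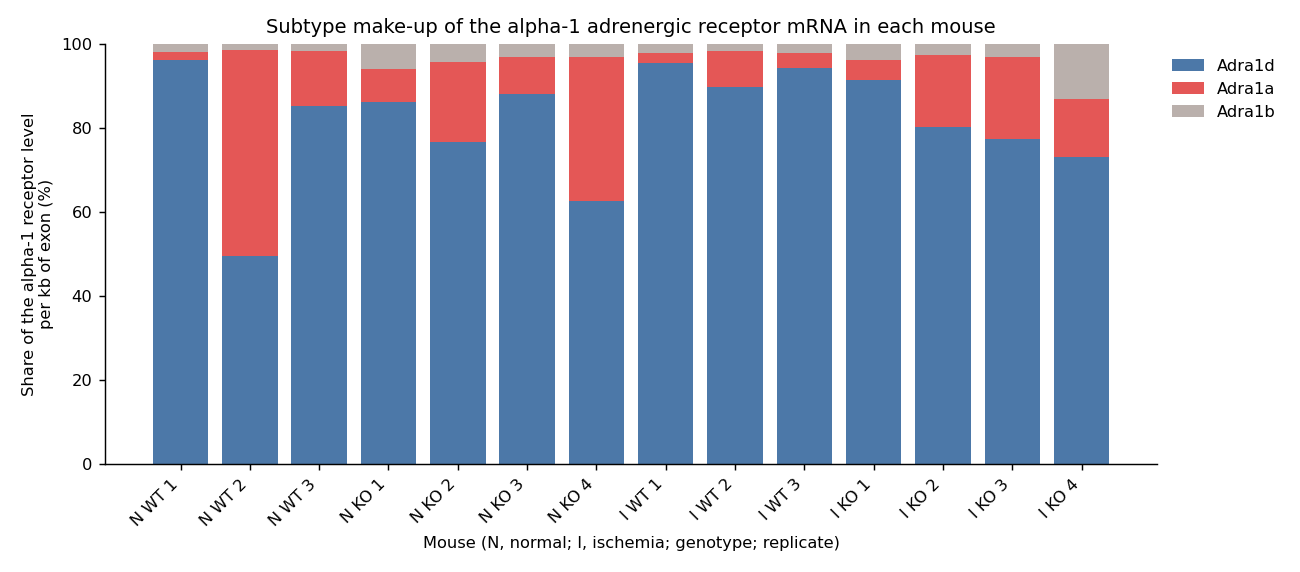
Share of each alpha-1 receptor gene in the summed level per kb of Adra1a, Adra1b and Adra1d (y axis, percent) in each of the 14 mice (x axis), as stacked bars. Adra1d fills most of every bar but that of WT normal mouse 2, where it has 49.5% and Adra1a 49.1%.

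Agtr1a, the type 1 receptor of angiotensin II, had 4.96, 14.8 and 2.49 CPM in WT and 1.30, 5.64, 6.66 and 6.96 CPM in KO mice under normal conditions. After ischemia it had 3.59, 5.72 and 4.53 CPM in WT and 3.83, 4.05, 5.99 and 12.1 CPM in KO mice. The groups overlapped in all comparisons, and WT normal mouse 2 was again the highest. Between single groups the log2 fold changes ranged from −0.69 ± 0.68 for ischemia in WT mice to 0.49 ± 0.64 for KO against WT after ischemia, none of which passed. Its near-identical copy Agtr1b was at 0 to 1.54 CPM, and reads could have been split between them.

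The endothelin receptor genes had moderate levels with different spread. Ednra, the receptor of smooth muscle, had the smallest ratio of highest to lowest level of the 10 genes, 3.80. It had 15.5, 20.1 and 8.83 CPM in WT and 14.8, 28.02, 20.2 and 12.4 CPM in KO mice under normal conditions, and 11.2, 17.4 and 11.96 CPM in WT and 10.4, 7.37, 10.1 and 18.1 CPM in KO mice after ischemia. In KO mice 3 of the 4 ischemic mice were below all 4 normal mice, and KO ischemia mouse 4 was not. The log2 fold change there was −0.72 ± 0.34 with an unadjusted p of 0.0532 and an FDR of 0.386 (edgeR), with −0.46 without KO normal mouse 2 and −1.03 without KO ischemia mouse 4, and in WT mice it was −0.13 ± 0.39.

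Ednrb had 18.3, 49.9 and 16.7 CPM in WT and 12.02, 23.6, 24.7 and 27.5 CPM in KO mice under normal conditions. After ischemia it had 11.9, 63.9 and 28.4 CPM in WT and 18.3, 34.8, 37.2 and 44.8 CPM in KO mice, again with overlap of the groups. Ischemia against normal conditions was 0.62 ± 0.48 in KO and 0.30 ± 0.56 in WT mice. Averaged over both genotypes it was 0.46 ± 0.37 (FDR 0.523). It was 0.07 without WT ischemia mouse 2, 0.81 without WT normal mouse 2 and 1.04 (FDR 0.0856) with the smooth muscle covariate. The ratio of Ednrb to Ednra per kb was above 1 in all 14 mice. Its mean was 2.38 ± 0.836 in normal WT (n = 3), 1.63 ± 0.838 in normal KO (n = 4), 3.04 ± 1.67 in ischemic WT and 4.06 ± 1.68 in ischemic KO mice, and the 2 KO groups overlapped (1.04 to 2.84 against 2.27 to 6.07).

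Tbxa2r, the thromboxane receptor gene, had 40.9, 9.98 and 32.9 CPM in WT and 32.02, 20.2, 25.5 and 15.1 CPM in KO mice under normal conditions. It had 48.0, 33.1 and 28.3 CPM in WT and 28.4, 20.8, 22.2 and 27.9 CPM in KO mice after ischemia. WT normal mouse 2 had the lowest level, and in ischemia KO mouse 1 was just above WT mouse 3. Between single groups, log2 fold changes lay between −0.56 ± 0.38 for KO against WT after ischemia and 0.38 ± 0.41 for ischemia in WT mice.

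Avpr1a, the vascular vasopressin receptor gene, had 5.72, 1.95 and 1.32 CPM in WT and 2.82, 9.40, 12.6 and 2.33 CPM in KO mice under normal conditions. After ischemia it had 0.943, 3.27 and 7.26 CPM in WT and 2.85, 2.55, 4.21 and 6.08 CPM in KO mice. The highest levels, in KO normal mice 2 and 3, were in a group whose other mice were lower than WT normal mouse 1. KO against WT under normal conditions was 1.17 ± 0.75 (FDR 0.982, edgeR) and 0.04 ± 0.73 after ischemia.

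Htr2a, the serotonin receptor gene of smooth muscle, was near the lower end of the range that could be tested, with 9 to 116 reads per mouse. It had 0.472, 0.320 and 4.38 CPM in WT and 1.92, 1.38, 0.813 and 1.41 CPM in KO mice under normal conditions, and 1.85, 0.476 and 2.98 CPM in WT and 0.267, 1.63, 1.49 and 1.79 CPM in KO mice after ischemia. Its highest level was in WT normal mouse 3, the mouse on lane 1. Averaged over both genotypes, ischemia against normal conditions was −0.02 ± 0.63, and 1.03 without that mouse.

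None of the 10 receptor genes was called in any of the 7 comparisons in edgeR, where a call needs a fold change over 1.5 and an FDR under 0.05. Of all 17693 genes, 0% were called for KO against WT under normal conditions, after ischemia or averaged over both, and 0% for the difference of the ischemia effect between the genotypes. The share was 0.0113% (2 genes) for ischemia in WT mice, 0.294% (52 genes) in KO mice and 0.927% (164 genes) averaged over both genotypes. DESeq2 called Adra2a in the last 2 of these and no other receptor gene, where it called 613 and 876 genes. In the other comparisons it called 112 genes for ischemia in WT mice, 50 and 32 for KO against WT under normal and ischemic conditions, 91 averaged over both conditions and 13 for the difference of the effects.

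At an unadjusted p under 0.05, 1 receptor gene each was counted for KO against WT under normal conditions (Adra2a; 5.25% of all genes), for KO against WT after ischemia (Adra2a; 6.48%), for ischemia in WT mice (Adra1a; 9.57%), for ischemia in KO mice (Adra2a; 13.2%) and for the difference of the effects (Adra2a; 4.32%). Averaged over both genotypes ischemia gave 3 of 10 (Adra1b, Adra1d and Adra2a; 18.1% of all genes), and KO against WT over both conditions gave 2 of 10 (Adra1b and Adra1d; 7.77%). Among the other group pairs, 0 of 10 receptor genes were free of overlap for KO against WT after ischemia (10.7% of all genes), for ischemia in WT mice (11%), for ischemia over both genotypes (0.848%) and for KO against WT over both conditions (0.13%).

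As a group the receptor genes had no common direction. For ischemia in KO mice 6 had a log2 fold change above 0 and 4 below, with a median of 0.10 beside −0.05 over all genes, and in WT mice the split was again 6 and 4, with a median of 0.17 beside −0.01. KO against WT gave 4 above and 6 below 0 in each condition, with medians of −0.29 under normal conditions and −0.14 after ischemia, beside −0.02 and −0.03 over all genes. The comparisons share groups of mice, so that these counts are not independent of each other.

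**Figure D3:**
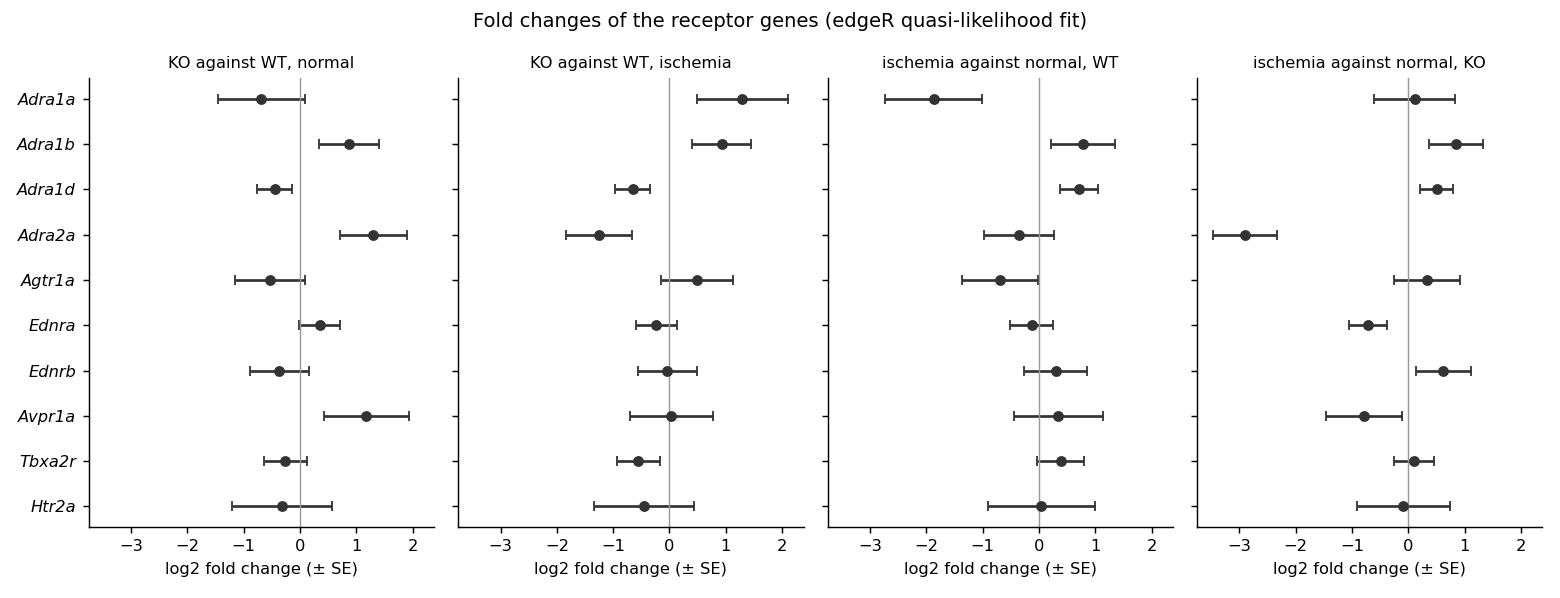
Log2 fold change ± SE from the edgeR fit (x axis) of each receptor gene (y axis) in the 4 comparisons between single groups, 1 panel each, with 0 marked by a line. Adra2a after ischemia in KO mice, at −2.90 ± 0.58, lies farthest from 0.

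Several receptor genes varied with marker genes of a cell type, some with more than 1 list, and these values stand beside the comparisons above. With the summed smooth muscle and brown adipocyte markers, Pearson r over the 14 mice was 0.86 and −0.69 for Adra1d. It was 0.85 and −0.83 for Tbxa2r, and −0.62 and 0.91 for Adra1a. For Ednrb it was −0.48 and 0.60, beside 0.53 with the summed endothelial markers. The summed smooth muscle markers ranged from 7316 to 25507 CPM in normal WT, 10703 to 25421 in normal KO, 20341 to 37356 in ischemic WT and 19104 to 31018 in ischemic KO mice, with all 6 markers having a log2 fold change above 0 for ischemia over both genotypes (median 0.43). Dividing by this sum reduced the SD of the log2 level over the 14 mice from 0.57 to 0.33 for Adra1d and from 0.58 to 0.34 for Tbxa2r, and raised it for Adra1a from 1.27 to 1.74. Dividing Adra1a by the summed brown adipocyte markers reduced its SD from 1.27 to 0.71, and dividing Avpr1a by the summed fibroblast markers (Pdgfra, Col1a1, Dcn, Lum) reduced its SD from 1.07 to 0.73. Adra2a had an SD of 1.38, which was higher after division by any of these 3 sums (1.59 to 2.36).

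The brown adipocyte sum was 169 to 6344 CPM in normal WT, 1088 to 6035 in normal KO, 264 to 1405 in ischemic WT and 963 to 4700 in ischemic KO mice. All 4 of its markers had a log2 fold change below 0 for ischemia in WT mice (median −1.84), the contrast in which Adra1a had −1.87. With the smooth muscle markers as a covariate, the ischemia effect over both genotypes moved from −0.88 to 0.20 for Adra1a and from 0.24 to −0.14 for Tbxa2r. The summed fibroblast markers were 1060 to 2844, 887 to 6286, 1138 to 5961 and 1391 to 1902 CPM in the same order of groups. Beyond the covariates, the part of these cell types in the receptor levels was not tested.

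**Figure D4:**
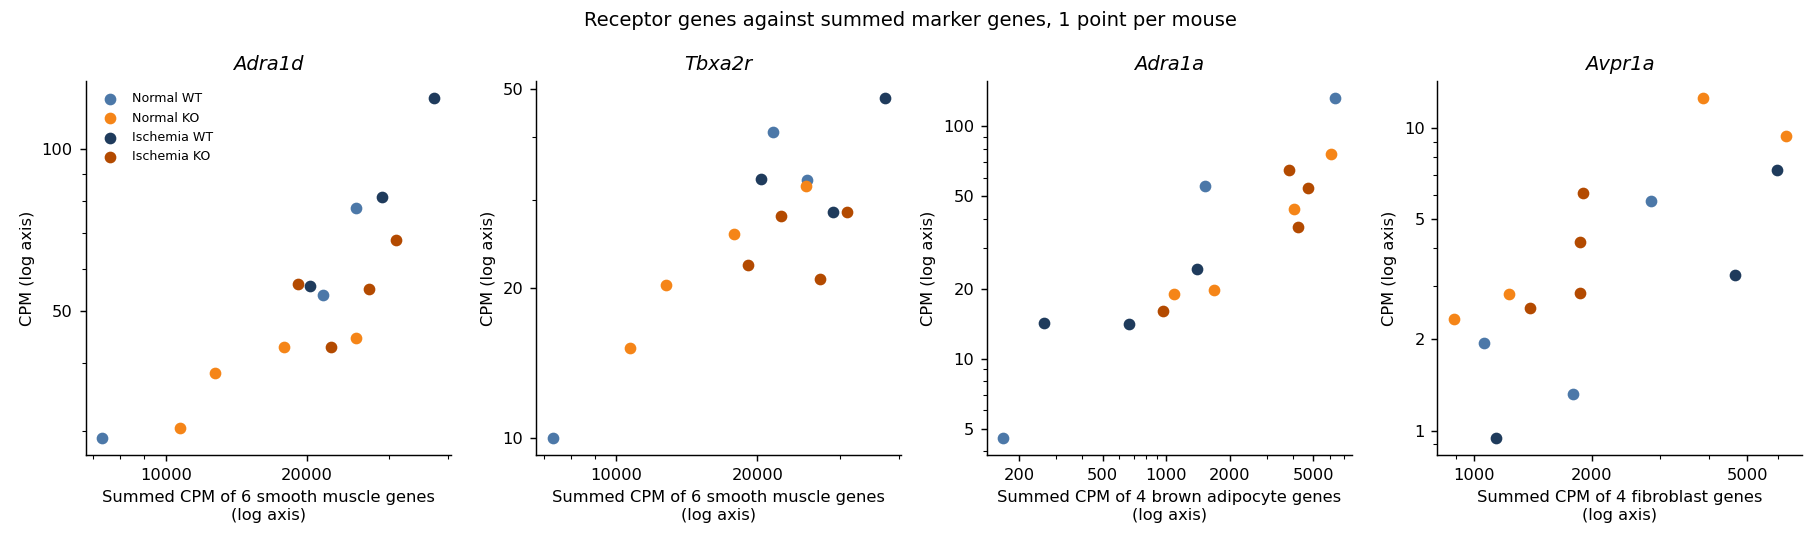
Level of a receptor gene in CPM (y axis, log scale) against the summed CPM of marker genes of 1 cell type (x axis, log scale); each point is 1 of the 14 mice, coloured by group. Adra1d and Tbxa2r are plotted against smooth muscle markers, Adra1a against brown adipocyte markers and Avpr1a against fibroblast markers; WT normal mouse 2 is at the low end of the first 2 panels, at 7316 CPM, and at the high end of the third, at 6344 CPM.

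Among 13730 other genes with a mean of at least 1 CPM, the pattern most like that of Adra1a over the 14 mice was that of Cs (Pearson r = 0.984), which encodes citrate synthase of the citrate cycle, and Gm13910 (0.981). For Adra1d it was that of Cdc42bpa (0.975), Kif5b (0.958) and Neo1 (0.952), and for Tbxa2r that of Cpne2 (0.966), Trim47 (0.959) and Bambi (0.952). Ednrb was most like Meox1 (0.929), Esam (0.921) and S1pr1 (0.896), of which Esam and S1pr1 are known from endothelium, and Avpr1a was most like Glt8d2 (0.924), Pcolce (0.924) and Prss12 (0.917). Agtr1a was most like Mad2l2 (0.935), Ednra like Podn (0.885) and Adra1b like Gpc1 (0.876). The closest gene to Htr2a had the lowest value (Msl3l2, 0.819). Adra2a was most like Fam234b (0.902), Afap1l2 (0.878) and Lyl1 (0.862). After the group means were taken out these fell to 0.664, 0.649 and 0.505, whereas Cs stayed at 0.984 with Adra1a. The values describe log2 CPM of the same libraries, picked as the highest of many, and carry no test.

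Of 82 related genes in the table, 72 were tested, and edgeR called 0 in each comparison. For ischemia over both genotypes 14 of them (19.4%, beside 18.1% of all genes) had an unadjusted p under 0.05, and DESeq2 called 5 (6.94%, beside 4.95% of all genes): Adrb1, P2ry2, Agt, Ptgs1 and Rgs3. In edgeR the log2 fold change there was 0.66 ± 0.19 for P2ry2 (FDR 0.106) and 2.84 ± 0.90 for Agt (FDR 0.142). Agt was near the floor in normal WT mice, at 0.0295 to 0.415 CPM. Its levels in ischemic KO mice were uneven (0.369 to 25.1 CPM) and overlapped those in normal KO mice (0.307 to 1.85 CPM). DESeq2 called Agt, Ptgs1 and Rgs3 for ischemia in KO mice (3 of 72, 4.17%, beside 3.46% of all genes) and Adrb1 in WT mice, and 0 in the other comparisons. The remaining receptors of the same families counted 9 tested genes, among them the beta-adrenergic gene Adrb3 and the serotonin receptor gene Htr1b. Adrb3 was at 57.6 ± 43.5 and 56.5 ± 40.3 CPM in normal WT and KO mice and at 24.9 ± 5.002 and 57.2 ± 30.3 after ischemia. Among the 9 receptors of other constrictors, Npy1r, the neuropeptide Y receptor gene, was highest, with 90.3 ± 61.6, 59.5 ± 25.1, 124 ± 58.1 and 112 ± 27.9 CPM in the same order. Its log2 fold change for ischemia over both genotypes was 0.69 ± 0.35 (FDR 0.319, edgeR).

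Among 11 tested ligand and enzyme genes, Ptgs1, which encodes cyclooxygenase-1 of the thromboxane pathway, was at 24.5 ± 6.48 CPM in normal and 11.4 ± 1.89 CPM in ischemic KO mice. These groups did not overlap (16.6 to 30.1 against 9.48 to 13.96 CPM), as for 5.6% of all genes in this direction, and the log2 fold change of −1.11 ± 0.23 had an FDR of 0.0697 in edgeR and 0.000990 in DESeq2. The angiotensin-converting enzyme gene Ace was at 277 to 376 CPM in normal and 294 to 454 CPM in ischemic KO mice, and Ece1, which encodes an enzyme that makes endothelin, was at 193 to 230 and 199 to 263 CPM.

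Downstream of the receptors, 19 G protein, phospholipase C and related genes were tested. For ischemia in each genotype, 12 had a log2 fold change above 0 and 7 below, and edgeR and DESeq2 called 0. Of these 19 genes, 1 in KO mice (beside 13.2% of all genes) and 0 in WT mice (beside 9.57%) had an unadjusted p under 0.05 in edgeR. The largest of them in level were Gnai2, Plcb4 and Itpr1, whose log2 fold changes for ischemia over both genotypes were 0.30 ± 0.14, 0.40 ± 0.21 and 0.35 ± 0.16. The 12 genes of calcium sensitization set how strongly the muscle responds to calcium. For ischemia over both genotypes, 12 of 12 had a log2 fold change above 0, with a median of 0.31 beside −0.05 over all genes. Of these, 0 were called by edgeR or DESeq2 (lowest edgeR FDR 0.286). In edgeR 0 had an unadjusted p under 0.05, beside 18.1% of all genes. Mylk, the myosin light chain kinase gene, had 0.46 ± 0.27 in this contrast, and the smooth muscle markers had a median of 0.43. For KO against WT, 11 of the 12 were below 0 both after ischemia (median −0.34) and over both conditions (median −0.27), with 1 and 3 at an unadjusted p under 0.05, beside 6.48% and 7.77% of all genes, and 0 called by either tool. Of the 6 smooth muscle markers, 6 and 5 were below 0 in these 2 comparisons, with medians of −0.26 and −0.27.

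Among 12 desensitization genes, Rgs5 and Rgs2, regulators that shorten G protein signals, and Adrbk1, a kinase of active receptors, had the highest levels. For ischemia over both genotypes their log2 fold changes were 0.28 ± 0.21, 0.36 ± 0.37 and 0.07 ± 0.11, and none passed. Adrb1 and Rgs3 were chosen after their values were seen, as the related genes with the smallest p for ischemia over both genotypes. Adrb1 did not pass in edgeR, with −1.58 ± 0.38 (FDR 0.0689 in edgeR, 0.00195 in DESeq2), at 7.80 ± 5.71 and 7.93 ± 3.69 CPM in normal WT and KO mice and 1.70 ± 0.413 and 4.04 ± 1.27 CPM after ischemia. Rgs3 likewise had −0.72 ± 0.17 (FDR 0.0689 in edgeR, 0.00505 in DESeq2), with 51.1 to 116 CPM in the 7 normal and 37.2 to 61.3 CPM in the 7 ischemic mice.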

How the data were processed

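The authors deposited 1 table of raw read counts per gene symbol and mouse, without normalization; replicates were not pooled. The submitters' processing notes name HISAT2 2.0.4 and mm10; the counting program, its annotation and its use of strand are not given in the sources used here. 0 columns of single samples were left unused. The median total count was 33506452; 3 counts were taken as the floor, which covers counting error only. Members and gene lists were chosen with earlier results of these data known.

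In R 4.3.3, counts of all 14 mice were filtered by filterByExpr, scaled by TMM and fitted by group with edgeR 4.0.16 (glmQLFit and glmQLFTest, Benjamini-Hochberg over all genes tested, FDR under 0.05, fold change over 1.5). The SE is the log2 fold change divided by the root of F. The alternatives were DESeq2 1.42.0, its size factors in edgeR, 2 other filters on low counts, FDR alone, the replicate number as a block, marker scores as covariates, a fit of only the groups compared, and each mouse left out. Exon lengths and coordinates came from GENCODE M21 on GRCm38. Likeness used log2 CPM with a prior count of 2. Related genes were named by at most 3 highest mean levels per list. Some genes under these rules are not reported here. No 2 libraries of a group were the same within counting noise (lowest chi-square per degree of freedom 58.6 over 18 pairs). The fits were tested on simulated data.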

Additional observations from a re-analysis of the deposited data

How the results depend on the processing

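Of 447 alternative values of 21 receptor fold changes, 422 kept their direction and their side of the limit, 12 newly passed it and 13 changed sign. None of the 21 passed the limit in the main edgeR fit, so none could lose it. Receptor genes called rose from 0 to 1 (Adra2a) for ischemia in KO mice under DESeq2, without a filter on low counts, with at least 10 counts in every mouse, with either marker covariate and in a fit of only the 2 groups, and for ischemia over both genotypes under DESeq2 and with the brown adipocyte covariate. Scaled by total count, 0 receptor genes were free of overlap for KO against WT under normal conditions. With the smooth muscle covariate, ischemia over both genotypes changed sign for Adra1a (0.20), Agtr1a (0.61) and Tbxa2r (−0.14), and Htr2a, near 0, changed sign with the replicate block (0.0742) and the brown adipocyte covariate (0.0397). With the smooth muscle covariate Ednra had −0.22 and Htr2a −0.41 in this contrast, and with the brown adipocyte covariate Adra1a had −0.07. The cause was not tested.

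DESeq2 called 50 genes for KO against WT under normal conditions, 32 after ischemia and 91 over both, 112, 613 and 876 for ischemia in WT, in KO mice and over both genotypes, and 13 for the difference of the effects. The replicate block gave 0 genes for ischemia in WT mice and 1 for KO against WT over both conditions. Whether same-numbered mice share more than the number is not given in the labels. Of 19 such pairs of mice, 11 had a correlation of deviations over 0.1 (−0.146 to 0.316, median 0.120). The median was −0.045 for pairs with other numbers. With the block, Adra2a for ischemia in KO mice had an FDR of 0.0732. The smooth muscle covariate gave 6 and 208 genes for ischemia in WT and KO mice, the brown adipocyte covariate 4, 329 and 533 (over both genotypes) and 15 for KO against WT over both conditions, and fits of only the 2 groups 0 and 267.

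With each mouse left out, all genes called ranged from 0 to 29 for KO against WT under normal conditions (29 without WT normal mouse 2), 0 to 0 after ischemia, 0 to 102 over both (102 without the same mouse), 0 to 3 for ischemia in WT mice, 5 to 174 in KO mice (5 without KO normal mouse 3, 174 without WT normal mouse 2), 60 to 361 over both genotypes (60 without KO normal mouse 2, 361 without WT normal mouse 1) and 0 to 0 for the difference. Receptor genes called ranged from 0 to 1 for ischemia in KO mice and over both genotypes. Adra2a in KO mice ranged from −3.12 to −2.37 with FDR 0.0333 to 0.185 and passed in 3 of 14. Receptor genes free of overlap ranged from 1 to 3 and 0 to 4 for KO against WT under normal conditions and after ischemia, 0 to 2, 1 to 3 and 0 to 1 for ischemia in WT, in KO mice and over both genotypes, and 0 to 0 for KO against WT over both conditions. Smaller groups are free of overlap more often for any gene, and the share over all genes is not given for these reduced groups. These counts are therefore not a result about the receptor genes. For ischemia over both genotypes Agtr1a ranged from −0.42 to 0.32, Avpr1a from −0.65 to 0.22 and Htr2a from −0.32 to 1.03. Htr2a was not tested with at least 10 counts in every mouse. Depth limits Htr2a and Adra2a most, with as few as 9 and 16 reads in a mouse.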
